A study of Mus musculus with 6 samples.

Results

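The genes described here are 10 that are known from blood vessel endothelium, the cell layer that lines vessels, and from haemogenic endothelium, the part of that layer from which the first blood stem cells arise: Kdr, Tek, Tie1, Cdh5, Pecam1, Eng, Stab2, Mmrn2, Pcdh17 and Egfl7. They were taken by symbol from a count table of 23951 genes, all 10 were found there, and all 10 passed the filter on low counts that left 12204 genes for testing. They were chosen by their own counts and CPM in these KO and WT libraries, with and without the third WT library, so their values are given as a description and carry no test.

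Total RNA was sequenced from fetal liver haematopoietic stem cells (HSCs) of C57BL/6 mice, in 3 libraries with a knockout of Uqcrfs1 (KO) and 3 wild type libraries (WT). Uqcrfs1 encodes the Rieske iron-sulfur protein (RISP), which passes electrons within complex III of the respiratory chain. The sources used here do not give the deleting allele or Cre, the age of the embryos, the sorting gate, or whether libraries came from separate embryos, and the p-values below reflect how much single libraries vary, a variation that may in part be technical. The comparison made is KO against WT, which asks which transcripts differ in fetal HSCs without this subunit.

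Total counts were 12020128 to 14590844 per KO library and 10191354 to 13189329 per WT library. Uqcrfs1 had 60, 51 and 39 counts in KO, against 771, 1320 and 791 in WT, which matches the labels of all 6 libraries. Genes that mark stem cells were well represented in every library. The mean log2 CPM (read counts scaled to a common effective library size) of 25 stem cell markers was 6.33 to 6.36 in KO and 6.63 to 6.71 in WT. WT replicate 3 stood apart for vessel and macrophage genes, and results are therefore given with and without it.

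Vessel growth and vessel integrity rest on a few receptor systems. KDR, the main signalling receptor for VEGF-A, drives endothelial growth, and TEK (TIE2), the receptor for angiopoietins, keeps vessels quiescent together with its partner TIE1. Endoglin is a co-receptor for BMP and TGF beta ligands, and VE-cadherin (Cdh5) and PECAM1 hold endothelial cells together. Several of these genes are not exclusive to vessels: haematopoietic stem cells are known to express Tek, Tie1, Pecam1 and Eng, and VE-cadherin has been described on early fetal liver stem cells. Stab2, by contrast, marks the sinusoidal endothelium of the liver, the organ from which these cells were taken.

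The stretches of 250 bases before an annotated start are shown for 5 of the genes because they represent the 3 patterns described below: Kdr and Pcdh17 were high mainly in WT replicate 3, Tek and Eng were present in all libraries, and Egfl7 was higher in KO. They are from RefSeq on build GRCm38.p6, which held such a window for 7 of the 10 genes, and run 5′ to 3′ on the strand of the gene. The positions are chr5:75978456-75978705 on the minus strand for Kdr, and, on the plus strand, chr14:84443313-84443562 for Pcdh17, chr4:94739039-94739288 for Tek, chr2:32646345-32646594 for Eng and chr2:26583615-26583864 for the second of 3 annotated Egfl7 starts. Capitals mark AGGAAG or CGGAAG, both core sequences bound by ETS factors, on either strand.
Kdr: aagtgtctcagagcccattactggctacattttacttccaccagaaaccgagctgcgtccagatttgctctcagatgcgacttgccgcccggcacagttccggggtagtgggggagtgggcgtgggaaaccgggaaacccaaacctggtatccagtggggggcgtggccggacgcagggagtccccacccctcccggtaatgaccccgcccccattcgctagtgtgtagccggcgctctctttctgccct
Pcdh17: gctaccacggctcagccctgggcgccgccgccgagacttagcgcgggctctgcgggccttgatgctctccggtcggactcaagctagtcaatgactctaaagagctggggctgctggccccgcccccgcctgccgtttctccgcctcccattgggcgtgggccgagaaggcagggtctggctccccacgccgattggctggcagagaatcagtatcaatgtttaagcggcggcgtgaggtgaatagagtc
Tek: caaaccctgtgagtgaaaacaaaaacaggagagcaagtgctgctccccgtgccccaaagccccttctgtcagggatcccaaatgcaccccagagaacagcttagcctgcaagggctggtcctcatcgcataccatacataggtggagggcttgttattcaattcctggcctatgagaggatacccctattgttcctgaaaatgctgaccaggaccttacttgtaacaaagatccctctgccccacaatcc
Eng: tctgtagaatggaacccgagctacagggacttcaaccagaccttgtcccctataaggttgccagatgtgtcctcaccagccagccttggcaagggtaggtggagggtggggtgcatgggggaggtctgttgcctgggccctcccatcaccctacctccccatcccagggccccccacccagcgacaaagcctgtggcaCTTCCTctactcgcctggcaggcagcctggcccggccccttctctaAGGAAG
Egfl7: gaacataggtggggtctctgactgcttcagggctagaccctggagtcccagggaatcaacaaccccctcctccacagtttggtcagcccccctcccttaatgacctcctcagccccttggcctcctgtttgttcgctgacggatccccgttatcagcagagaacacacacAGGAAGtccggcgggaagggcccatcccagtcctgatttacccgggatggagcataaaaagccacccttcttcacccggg

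Such an ETS core lay in 5 of the 9 windows of these genes, namely those of Tie1, Eng, Stab2 and the first and second Egfl7 starts, and in 39.2% of 32851 windows of the same length. The windows of Kdr, Tek and Pcdh17 hold neither spelling. Of the 250 bases, 212 in the Tie1 window, 83 in that of Stab2 and 27 in that of the first Egfl7 start are annotated exon of the same gene. Egfl7 is counted once for each of its annotated starts. None of the spellings searched, all on both strands, contains another. The GATA core AGATAA was in 0 of the 9 windows and in 9.99% of all windows. The E-box CANNTG was in 6 of 9 windows and in 66.2% of all, and the FOX core TGTTTA was in 1 of 9, that of Pcdh17, and in 12% of all. These matches describe letters in a short window and show nothing about binding.

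Stab2, Kdr, Cdh5, Mmrn2 and Pcdh17 had their highest level in WT replicate 3 by a wide margin. In that library each stood between 4.23 and 8.71 times above the mean of WT replicates 1 and 2. A level at least 2-fold above that mean was found for 5 of the 10 vessel genes and for 7.35% of the 12204 tested genes. WT replicate 3 was the highest of the 6 libraries for 9 of the 10 genes, against 18.2% of tested genes. These counts restate what was known when the genes were chosen.

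Stab2 encodes stabilin-2, the scavenger receptor by which liver sinusoids clear hyaluronan. It had 100, 163 and 72 counts in KO replicates 1 to 3, against 827, 259 and 4050 in WT replicates 1 to 3. All KO libraries lay below all WT libraries, and the WT libraries differed among themselves by more than 10 times, at 82.9, 24.1 and 312 CPM. The fitted log2 fold change was -4.14 with a standard error (SE) of 1.18, and -2.75 with an SE of 0.43 without WT replicate 3.

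Kdr, the VEGF receptor gene, had 201, 93 and 51 counts in KO and 261, 138 and 2149 in WT. At 14.5, 6.19 and 4.02 CPM in KO and 26.2, 12.8 and 166 CPM in WT, the groups overlapped, since KO replicate 1 lay above WT replicate 2. The log2 fold change was -3.05 (SE 1.30), and -1.24 (SE 0.51) without WT replicate 3, so most of the fitted difference came with that library.

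Cdh5 encodes VE-cadherin, the adhesion molecule of endothelial junctions. Its level was 15.7, 10.5 and 7.26 CPM in KO, against 45.2, 24.7 and 148 CPM in WT. Every KO library lay below every WT library, also with WT replicate 3 set aside. The log2 fold change was -2.70 (SE 0.85) with all libraries and -1.64 (SE 0.37) without WT replicate 3.

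Mmrn2, or multimerin-2, is an endothelial matrix glycoprotein that binds the lectin-like receptors CD93 and CLEC14A. It had 20, 10 and 24 counts in KO and 82, 51 and 441 in WT. The groups did not overlap, and the log2 fold change was -3.55 (SE 0.72), or -2.28 (SE 0.97) without WT replicate 3. Pcdh17, a protocadherin gene, was close to absent in KO, with 9, 0 and 1 counts, against 52, 50 and 557 in WT. The count of 0 in KO replicate 2 allows up to 0.2 CPM, taking 3 counts as the limit, which covers counting error only. For Pcdh17, WT replicates 1 and 2 lay close together at 5.21 and 4.65 CPM, and no KO library exceeded 0.649 CPM. Its log2 fold change was -6.13 (SE 1.46), and -4.29 (SE 1.55) without WT replicate 3. With so few KO counts it also moved to -8.57 without KO replicate 1.

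**Figure D1:**
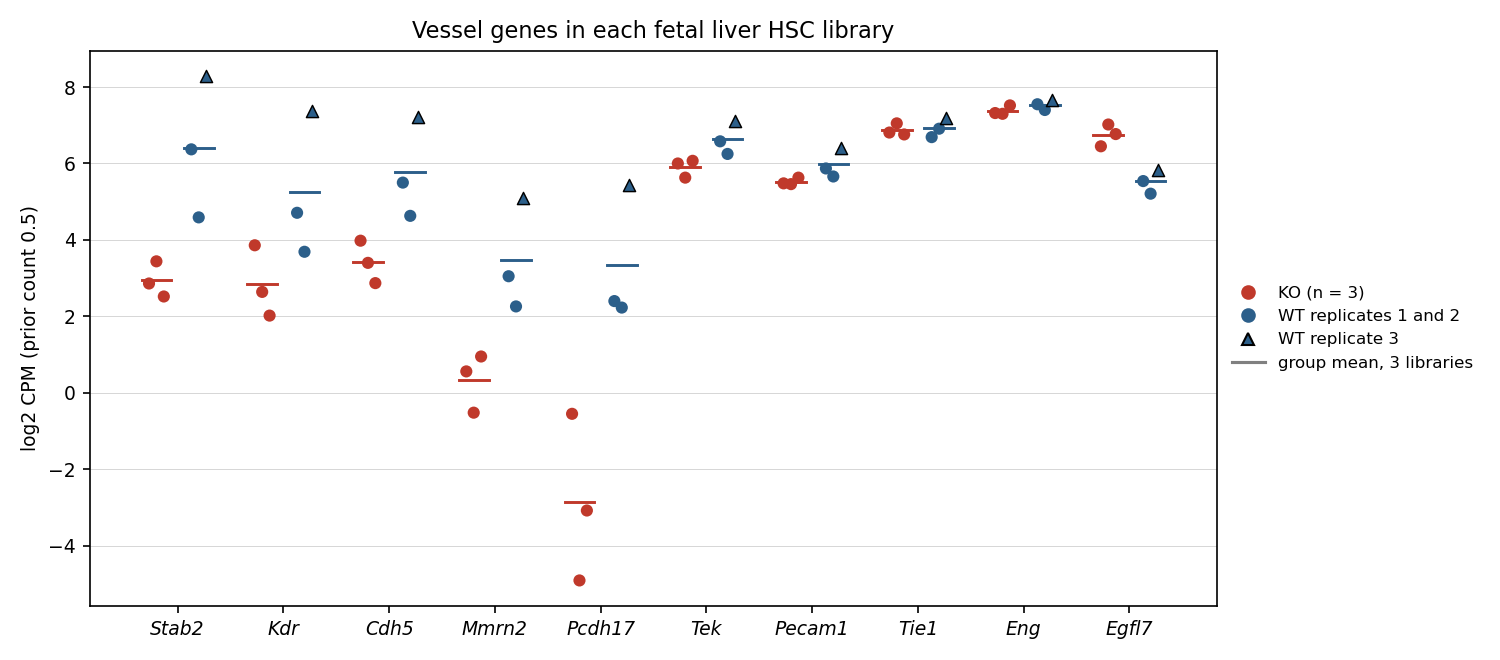
Level of each vessel gene in each library as log2 CPM with a prior count of 0.5, KO left of WT, with WT replicate 3 as an outlined triangle and the mean of 3 libraries as a line. Levels can be compared between libraries for a gene but not between genes of different length. WT replicate 3 is highest for every gene except Egfl7, which is higher in all KO libraries.

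Tek, Tie1, Pecam1 and Eng were present in all 6 libraries and differed much less. Tek, the angiopoietin receptor gene, had 64.2, 49.5 and 67.2 CPM in KO, against 95.3, 76.0 and 139 CPM in WT. The KO libraries lay below the WT libraries, with a log2 fold change of -0.78 (SE 0.20), or -0.51 (SE 0.20) without WT replicate 3. Pecam1, which encodes an adhesion molecule of endothelium, platelets and leukocytes, had 44.7, 43.9 and 49.6 CPM in KO, against 58.4, 50.6 and 84.5 CPM in WT. Its highest KO and lowest WT library lay close together, and its log2 fold change was -0.49 (SE 0.21), or -0.24 (SE 0.21) without WT replicate 3.

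Tie1, the partner receptor of TEK, overlapped between the groups at 112, 132 and 108 CPM in KO and 103, 120 and 147 CPM in WT. Its log2 fold change was -0.07 (SE 0.15), and it took the opposite sign, 0.07 (SE 0.16), without WT replicate 3. Eng, the endoglin gene, also overlapped, with 160, 158 and 183 CPM in KO and 187, 169 and 202 CPM in WT. Its log2 fold change was -0.16 (SE 0.12), or -0.10 (SE 0.14) without WT replicate 3. The spans of Eng and Fpgs overlap in the RefSeq annotation, and the strand setting of the authors' counting is not known here, so reads of the 2 genes may be mixed. In that annotation Kdr (Gm32727), Cdh5 (Gm29682), Stab2 (Gm16270 and Gm16271) and Pcdh17 (9630013A20Rik) overlap other genes too. The same limit holds for their rows.

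Egfl7 went the other way. It encodes a secreted protein that endothelial cells deposit around growing vessels, also known as VE-statin. It had 1208, 1944 and 1386 counts in KO, against 463, 398 and 740 in WT, or 87.1, 129 and 109 CPM in KO and 46.4, 37.1 and 57.1 CPM in WT. All KO libraries lay above all WT libraries, including WT replicate 3, which was the highest WT library. The log2 fold change was 1.21 (SE 0.19), and 1.38 (SE 0.21) without WT replicate 3. An intron of Egfl7 gives rise to miR-126, a microRNA of endothelium and of stem cells. The mature miR-126a-3p, shown because its hairpin lies within Egfl7, maps to chr2:26591402-26591423 on the plus strand of GRCm38.p6, inside the span of the host gene, and has its seed (bases 2 to 8) in capitals.
mmu-miR-126a-3p: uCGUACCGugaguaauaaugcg
The row for the miR-126 hairpin had 0 counts in all 6 libraries, so the host gene's level gives no reading of the microRNA here.

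In the fit over all genes (edgeR quasi-likelihood test, Benjamini-Hochberg adjustment, threshold 0.05), 3 of the 10 genes were lower in KO past the threshold, Tek, Mmrn2 and Pcdh17, where 4.99% of tested genes were. Of the 10 genes 1 was higher, Egfl7, where 6.41% of tested genes were. Without WT replicate 3 the lower ones were Cdh5 and Stab2, beside 3.87% of tested genes, and Egfl7 stayed higher, beside 5.63%. Without that library 9.49% of tested genes passed in either direction. KO and WT libraries did not overlap for 7 genes, beside 30.2% of tested genes, with 6 lower and 1 higher in KO, beside 14.5% and 15.7%. With WT replicate 3 set aside the same 7 did not overlap, beside 40.6% of tested genes, and 6 were lower, beside 20.1%. Because these values chose the genes, nothing is read from those counts. The median log2 fold change of the 10 genes was -1.74 with all libraries and -0.87 without WT replicate 3, beside -0.02 and -0.01 for all tested genes.

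**Figure D2:**
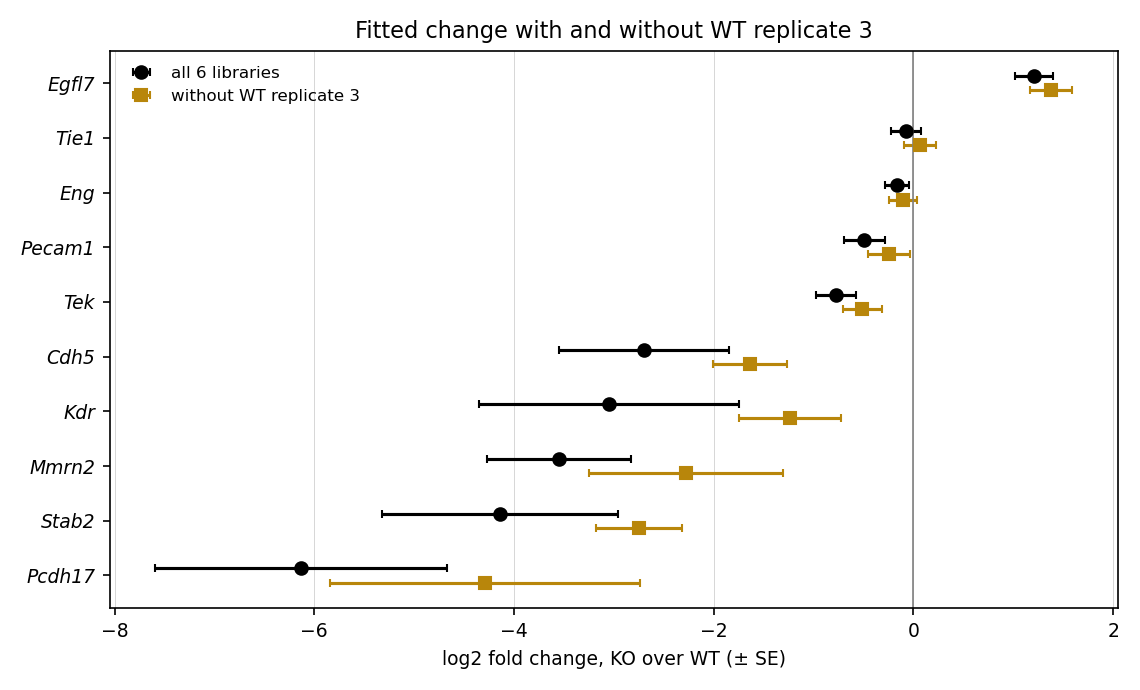
Fitted log2 fold change of each vessel gene, KO over WT, with its SE as bars, from all 6 libraries (circles) and without WT replicate 3 (squares). The change of Kdr shrinks from -3.05 to -1.24, Tie1 lies at -0.07 and 0.07, and Egfl7 stays above 1 in both fits.

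Per unit of length, in the RPKM values that the authors deposited, Egfl7 had the highest level in KO at 56.4 ± 12.0 RPKM, against 30.5 ± 4.38 in WT (SD, n = 3 each). Eng followed at 33.6 ± 3.46 RPKM in KO and 37.9 ± 3.18 in WT, and Tie1 at 24.3 ± 2.56 in KO and 25.7 ± 4.07 in WT. Tek and Pecam1 came next in KO at 12.5 ± 1.95 and 10.4 ± 3.35 RPKM, neighbours whose levels overlapped. Pecam1 was at 12.8, 11.9 and 6.59 RPKM in KO replicates 1 to 3. The RPKM of Egfl7 and Pecam1 did not keep a fixed ratio to their counts, as described at the end, which limits their place in this order. Cdh5, Kdr and Stab2 lay far lower in KO, at 2.15 ± 0.784, 1.33 ± 0.775 and 0.772 ± 0.289 RPKM, and Mmrn2 and Pcdh17 were lowest at 0.215 ± 0.0958 and 0.0260 ± 0.0374. In WT replicate 3 this order was compressed. There Stab2 reached 30.8 RPKM, Cdh5 29.2 and Kdr 27.0, beside 29.8 for Tie1 and 28.6 for Tek.

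The genes also varied together across the libraries, apart from Egfl7 and Tie1. Pearson's correlation of log2 CPM over the 6 libraries with the mean of the 10 standardised genes was between 0.828 and 0.989 for the 8 others, 0.543 for Tie1 and -0.514 for Egfl7. The 6 libraries share their group and the weight of WT replicate 3, so this is a description. By the same measure the tested genes outside the set most like it were Cd81, Ctsb, C1qb, Hspg2, Siglec1, Ppp2r5e, Pvrl1, Pvrl2, Grn and Unc93b1, with correlations of 0.979 to 0.995. They include Hspg2, the basement membrane proteoglycan perlecan, and macrophage or lysosome genes. Because they were picked by likeness in these same libraries, low KO levels and a peak in WT replicate 3 follow from the choice. The p-values given for them below are therefore a description and no support. Hspg2 had 14.1, 14 and 21.5 CPM in KO, against 40.7, 22.3 and 209 CPM in WT. C1qb, a complement gene of macrophages, had 4.47, 2.93 and 2.68 CPM in KO, against 11.8, 5.49 and 93.5 CPM in WT. Ctsb, the cathepsin B gene, had 112, 92.7 and 92.7 CPM in KO, against 182, 124 and 496 CPM in WT. None of these 3 passed the threshold (edgeR, adjusted p = 0.252, 0.207 and 0.261), and all 3 were highest in WT replicate 3. Without that library Ctsb passed at a log2 fold change of -0.63 (SE 0.17; edgeR, adjusted p = 0.0223), and C1qb passed with DESeq2 on all libraries (adjusted p = 0.0199). Grn, the progranulin gene, fell by 1.01 (SE 0.25; edgeR, adjusted p = 0.0221), also without WT replicate 3, but did not pass without any 1 of the KO replicates or WT replicate 1 (edgeR, adjusted p = 0.0509 to 0.13).

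Beyond the 10 genes, 144 genes tested from 9 lists of vessel genes were read in the same fit. In KO, 27 of these fell and 8 rose, beside 4.99% and 6.41% of all tested genes, and their median log2 fold change was -0.51. The same shares of all tested genes stand beside the all-library edgeR counts of each list below. The lists share genes with each other, so counts of single lists are not separate evidence, while the 144 count each gene once. Clec14a and Cd93, for example, are each on the junction, pan-endothelial and matrix lists. The stem cell list shares 2 genes with the pan-endothelial list, 3 with the haemogenic list and 1 with the matrix list. Without WT replicate 3, 14 of the 146 vessel list genes then tested were lower and 8 higher, and the median was -0.32. All tested genes were lower in 3.87% and higher in 5.63% of cases in that fit, so the higher count was near the general share. These shares also stand beside the list counts below without WT replicate 3. Of the 27 lower genes, 10 also passed without WT replicate 3, and 5 passed whichever library was left out, namely Ptprb, Id2, Clec14a, Pcdh12 and Vwf. Of the 8 higher genes, 7 passed without WT replicate 3, and Vegfa and Selp passed whichever library was left out. Every other gene called from these lists lost its call in at least 1 of the 6 fits that left out a library. The lower count was 13, 12 and 14 without KO replicate 2, KO replicate 3 and WT replicate 1, and 37 without WT replicate 2. The higher count was 3 and 4 without KO replicates 2 and 3, 5 without KO replicate 1 or WT replicate 1, and 4 without WT replicate 2. Between 146 and 157 vessel list genes were tested in the fits that left out a library. In a bulk library, fewer cells of a type and less RNA per cell cannot be told apart.

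Among VEGF ligands and receptors, the ligand Vegfa was higher in KO, and the receptor Flt1 and the co-receptor Nrp1 were lower. Vegfa, the ligand of KDR, stood at 96.0, 165 and 196 CPM in KO and 40.8, 22.0 and 29.0 CPM in WT. It rose by 2.32 on the log2 scale (SE 0.29; edgeR, adjusted p = 0.000663), and by 2.28 (SE 0.35) without WT replicate 3. Flt1, the decoy-like VEGF receptor, had 4.98, 4.33 and 2.37 CPM in KO, against 19.2, 5.31 and 46.3 CPM in WT. It fell by 2.60 (SE 0.64; edgeR, adjusted p = 0.0196), and its adjusted p was 0.110 without WT replicate 3 and at most 0.148 with any 1 library left out. Nrp1, a VEGF co-receptor, fell by 2.13 (SE 0.53; edgeR, adjusted p = 0.0299, and 0.0542 without WT replicate 3). Flt4, the receptor for VEGF-C and a gene chosen after its values were seen, had 4.90, 0.666 and 4.10 CPM in KO and 27.6, 11.3 and 79.2 CPM in WT. Its log2 fold change was -3.62 (SE 1.10; edgeR, adjusted p = 0.122), and it passed without WT replicate 3 at -2.59 (SE 0.64; edgeR, adjusted p = 0.0124). Plcg1, a phospholipase that acts below KDR among other receptors, rose by 0.57 (SE 0.16; edgeR, adjusted p = 0.0248). It did not pass without KO replicate 1, KO replicate 2 or WT replicate 2 (edgeR, adjusted p = 0.0924, 0.123 and 0.099), and in those fits 1 gene of the list was higher. In all, 2 of 10 tested genes of this list rose and 2 fell. Without WT replicate 3 the numbers were 3 and 1, and without any 1 of KO replicates 1 to 3 or WT replicate 1 none fell (edgeR; 3 were lower at an unadjusted p under 0.05 with all libraries, and 3 with DESeq2).

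In the angiopoietin system, Angpt1, the TEK ligand that stem cells themselves make, had 489, 454 and 367 CPM in KO and 492, 413 and 372 CPM in WT. Its log2 fold change was 0.04 (SE 0.12; edgeR, adjusted p = 0.899), and it was -0.05 without WT replicate 3 or without KO replicate 1. Ptprb, the endothelial phosphatase that restrains TEK, had 3.39, 7.32 and 4.34 CPM in KO, against 31.1, 13.6 and 35.5 CPM in WT. It fell by 2.41 (SE 0.43; edgeR, adjusted p = 0.000833), and by 2.15 (SE 0.49) without WT replicate 3. It was the only 1 of 8 tested genes of this list past the threshold. None rose in edgeR, at an unadjusted p under 0.05 or in DESeq2.

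**Figure D3:**
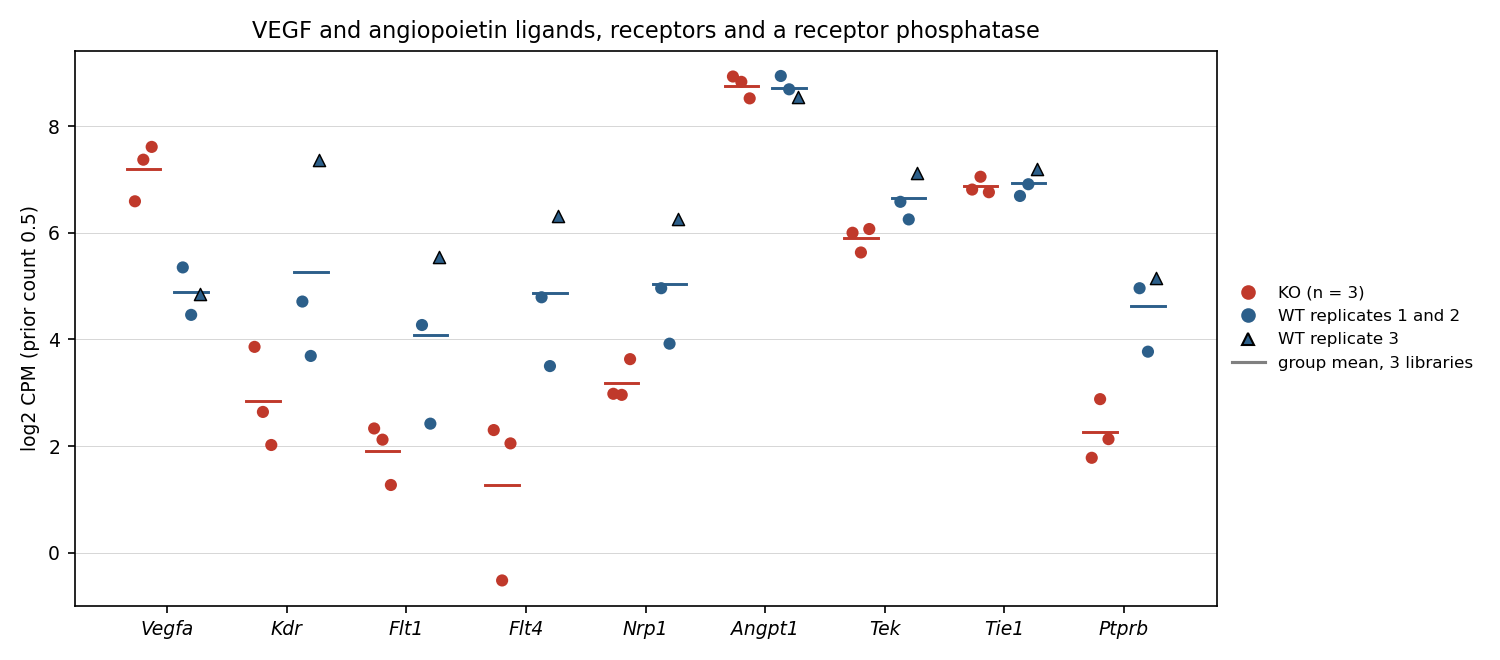
Level of VEGF and angiopoietin ligands (Vegfa, Angpt1), their receptors and co-receptor (Kdr, Flt1, Flt4, Nrp1, Tek, Tie1) and the phosphatase gene Ptprb as log2 CPM with a prior count of 0.5, KO left of WT, with lines at the mean of 3 libraries. Vegfa is higher in all KO libraries, Angpt1 overlaps, and Ptprb is lower in all KO libraries than in any WT library.

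Around endoglin, 1 of 17 tested genes of BMP and TGF beta signalling passed the threshold. It was lower in KO, as were 4.99% of all tested genes. Id2, an inhibitor of helix-loop-helix factors and a target of BMP signalling, had 3.82, 8.06 and 11 CPM in KO, against 47.7, 24.4 and 29.0 CPM in WT. It fell by 2.14 (SE 0.38; edgeR, adjusted p = 0.000930), and WT replicate 3 was not its highest library. Id1 and Id3 of the same list, both chosen after their values were seen, stood at log2 fold changes of 0.62 and -0.73. Neither passed (edgeR, adjusted p = 0.333 and 0.186). The TGF beta receptor genes Tgfbr1 and Tgfbr2 stood at log2 fold changes of -0.56 and -0.42 and did not pass (edgeR, adjusted p = 0.0792 and 0.120). None rose in edgeR, at an unadjusted p under 0.05 or in DESeq2, and 5 were lower at an unadjusted p under 0.05. Without WT replicate 2, 3 of these genes were lower.

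Of genes for junctions and adhesion, 8 of 24 fell and 1 rose, or 3 and 1 without WT replicate 3 or without KO replicate 3, and 4 and 1 without KO replicate 2. The list shares 3 genes with the stem cell markers, Cd34 and Cd93 among them, and 1 with the macrophage markers. Pcdh12, an endothelial protocadherin gene, had 0.216, 0.133 and 0 CPM in KO, against 7.62, 2.14 and 14.1 CPM in WT, and fell by 5.95 (SE 1.14; edgeR, adjusted p = 0.00168). Clec14a, the receptor that binds multimerin-2, had 3.24, 2.80 and 0.394 CPM in KO, against 17.2, 12.9 and 42.7 CPM in WT. It fell by 3.49 (SE 0.66; edgeR, adjusted p = 0.00386), and by 2.80 (SE 0.68) without WT replicate 3. Cd93, the other receptor of multimerin-2, was abundant in all libraries and fell by 0.43 (SE 0.12; edgeR, adjusted p = 0.0207, and 0.0887 without WT replicate 3). Cd34, the sialomucin of vessels and progenitors, fell by 0.49 (SE 0.12; edgeR, adjusted p = 0.00816, and 0.0714 without KO replicate 2). Selp, the P-selectin gene of platelets and activated endothelium, rose by 1.58 (SE 0.35; edgeR, adjusted p = 0.00511), with 25.5, 19.6 and 29.0 CPM in KO and 10.1, 7.63 and 7.09 CPM in WT.

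Among pan-endothelial markers, 8 of 29 fell and none rose, with a median log2 fold change of -0.81. None rose at an unadjusted p under 0.05 or in DESeq2 either. Without WT replicate 3, 4 were lower and the median was -0.55. The lower count was also 5 without KO replicate 1, 4 without KO replicate 2 or WT replicate 1, 3 without KO replicate 3, and 11 without WT replicate 2. Vwf, the von Willebrand factor gene of endothelium and megakaryocytes, had 75.7 ± 15 CPM in KO and 131 ± 21.6 in WT (SD, n = 3 each), and fell by 0.79 (SE 0.17; edgeR, adjusted p = 0.00390). Rasip1, needed for vessel lumens, fell by 1.24 (SE 0.30; edgeR, adjusted p = 0.0105, and 0.112 without WT replicate 3). Myct1, a gene of endothelium and stem cells, fell by 0.94 (SE 0.24; edgeR, adjusted p = 0.0172) and among WT libraries was lowest in replicate 3. Without that library it passed, and it did not pass without any 1 of KO replicate 2, KO replicate 3, WT replicate 1 and WT replicate 2 (edgeR, adjusted p = 0.0522 to 0.0961). The most abundant marker, Eltd1, an adhesion receptor gene, stood at a log2 fold change of -0.24 (SE 0.11) and did not pass (edgeR, adjusted p = 0.168).

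Sinusoidal endothelium is the vessel bed of the fetal liver itself. Of 18 tested genes 4 fell and none rose, also at an unadjusted p under 0.05 or in DESeq2, and the median log2 fold change was -3.07 with all libraries and -1.53 without WT replicate 3. The lower count was 2 in 4 of the fits that left out a library, those without KO replicate 2 or 3 and without WT replicate 1 or 3, and 10 without WT replicate 2. Cd209b and Wnt2, both on this list, had 0 counts in every library. WT replicate 3 was at least 2-fold above the mean of WT replicates 1 and 2 for 15 of the 18, beside 7.35% of all tested genes. Stab1, the partner scavenger receptor of stabilin-2, had 17.6, 14.3 and 4.34 CPM in KO, against 46.5, 13.6 and 292 CPM in WT. Mrc1, the mannose receptor of sinusoids and macrophages, had 18.9, 5.86 and 4.89 CPM in KO, against 36.6, 11.4 and 231 CPM in WT. Both overlapped between the groups and did not pass (edgeR, adjusted p = 0.269 and 0.279). Bmp2, a BMP ligand gene of sinusoids, had 0 counts in all KO libraries and 212 in the WT libraries together (edgeR, adjusted p = 0.00293, and 0.0955 without WT replicate 3). Against all WT libraries pooled this was at least 87.2-fold lower, taking 3 counts over the KO group as the limit. That bound includes WT replicate 3 and is no floor without it. The fitted log2 fold change was -9.17 (SE 1.83), and -7.50 (SE 2.74) without WT replicate 3. Dnase1l3, Clec4g and Dpp4 fell by 2.90, 4.41 and 0.92 (edgeR, adjusted p = 0.0140, 0.0336 and 0.0453), and none of these 3 passed without WT replicate 3 (edgeR, adjusted p = 0.102, 0.0534 and 0.0710).

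Macrophage markers moved with the vessel genes. WT replicate 3 was at least 2-fold above the mean of WT replicates 1 and 2 for 22 of 25 tested macrophage and monocyte markers, and was the highest library for 24. The shares over all tested genes were 7.35% and 18.2%. The summed level of the 28 listed genes was 148 to 241 CPM in KO and 314 to 1970 CPM in WT, the highest being WT replicate 3. That of the 22 listed sinusoidal genes, 2 of which are on the macrophage list as well, was 78.3 to 148 CPM in KO and 136 to 1330 CPM in WT. Csf1r, the macrophage growth factor receptor gene, had 6.56, 4.53 and 17.5 CPM in KO, against 60.6, 26.8 and 203 CPM in WT. In WT replicate 2, which had the lowest sinusoidal and macrophage sums of the WT group, the sinusoidal sum of 136 CPM was within the KO range. None of the macrophage markers had 0 counts in every library. Of these markers 4 fell, 8 without WT replicate 2 and 3 without WT replicate 3 or KO replicate 2, and none rose (edgeR; none rose at an unadjusted p under 0.05 or in DESeq2). Their median log2 fold change was -2.74 with all libraries and -1.14 without WT replicate 3. Lyz2 and Lyz1, lysozyme genes so alike in sequence that reads may be split between them, were among those that fell, as was Msr1, a scavenger receptor gene, which did not pass without WT replicate 3 (log2 fold change -3.99, SE 1.67; edgeR, adjusted p = 0.147). Lyz2 fell by 1.43 (SE 0.19; edgeR, adjusted p = 5.82e-05), and by 1.30 without WT replicate 3 (SE 0.20; edgeR, adjusted p = 0.000166). The part of macrophage or sinusoidal cells in the differences of the 10 genes was not tested.

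For markers of other cells, WT replicate 3 was at least 2-fold above the mean of the other WT libraries for 3 of 15 hepatoblast, 2 of 16 megakaryocyte, 1 of 13 erythroid and 1 of 25 stem cell markers. The same held for 0 of 5 tested stromal markers and for 7.35% of all tested genes. The stromal genes Col3a1, Des and Lum had 0 counts in every library. In KO, 2 hepatoblast, 4 megakaryocyte, 6 erythroid, 8 stem cell markers and 1 stromal marker were lower, and 1 megakaryocyte and 1 stem cell marker were higher (edgeR). The 8 lower stem cell markers numbered 2 without KO replicate 2 or 3 and 3 without WT replicate 1, the 4 megakaryocyte markers 1 without KO replicate 2 or WT replicate 1, the 6 erythroid markers 4 without KO replicate 2, and the stromal marker was called only with all libraries or without KO replicate 1. The summed hepatoblast level was 389 to 582 CPM in KO and 741 to 1400 CPM in WT, highest in WT replicate 3. By the mean log2 CPM of the 15 tested hepatoblast genes, WT replicate 3 was not the highest library. Its mean was 2.8, below WT replicate 1 at 3.49 and KO replicate 3 at 3. Only 3 of these 15 genes peaked in WT replicate 3, beside 18.2% of all tested genes. Kit, the stem cell factor receptor gene, stood at 576 ± 45.3 CPM in KO and 751 ± 87.5 in WT (SD, n = 3 each), a fall by 0.38 (SE 0.11; edgeR, adjusted p = 0.0212). Kit did not pass without WT replicate 3 (edgeR, adjusted p = 0.051), WT replicate 1 (0.119), KO replicate 2 (0.0845) or KO replicate 3 (0.122).

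**Figure D4:**
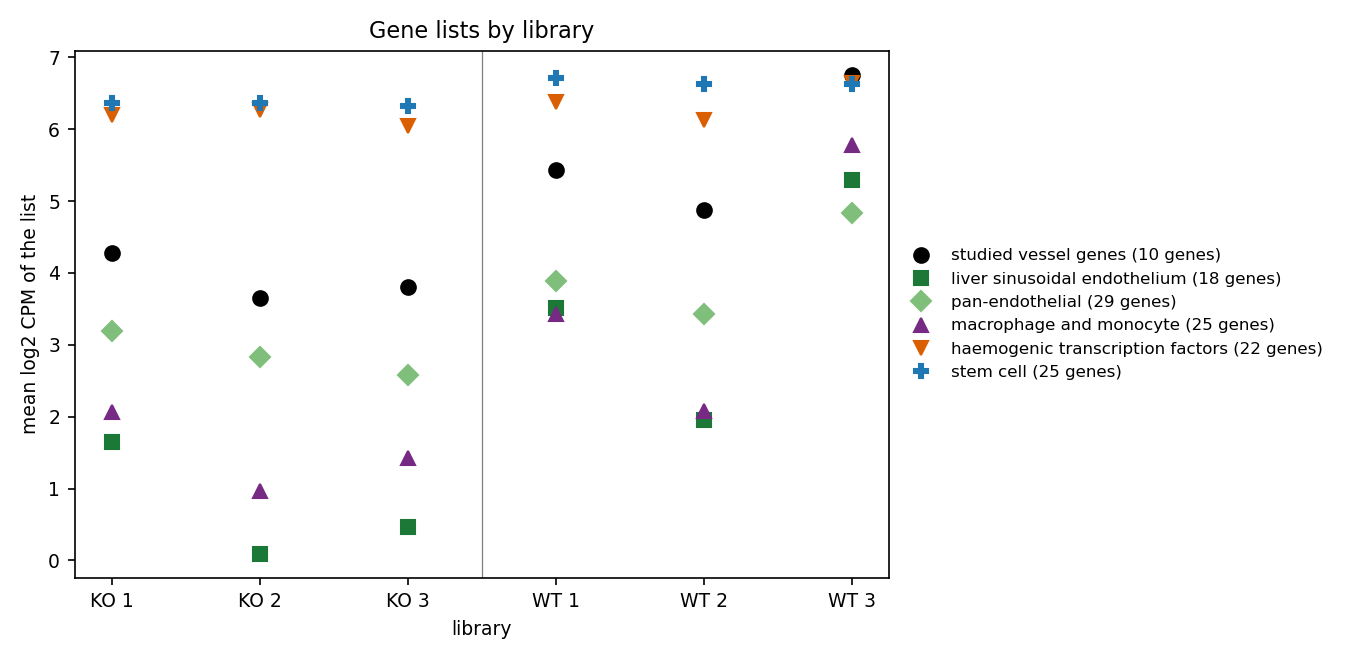
Mean log2 CPM of the tested genes of 6 lists in each library, KO left of WT, with 1 symbol per list. In WT replicate 3 the sinusoidal list stands at 5.29 and the macrophage list at 5.78, against 1.96 and 2.08 in WT replicate 2, while the stem cell list lies between 6.63 and 6.71 in all WT libraries.

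Of 25 listed transcription factors of haemogenic endothelium, 22 were tested and 2 had 0 counts in every library. Runx1, which is required for blood cells to emerge from endothelium, had 160 ± 27.4 CPM in KO and 238 ± 51.6 in WT (SD, n = 3 each), a fall by 0.57 (SE 0.15; edgeR, adjusted p = 0.0210). Hhex, a homeobox factor of early endothelium and blood, fell by 0.51 (SE 0.14; edgeR, adjusted p = 0.0209). Gfi1, a repressor that acts below RUNX1 to shut off endothelial genes, rose by 0.62 (SE 0.17; edgeR, adjusted p = 0.0199), at 103, 125 and 107 CPM in KO and 84.2, 56.6 and 77.2 CPM in WT. These 3 were the only ones of 22 tested, beside 11.4% of all tested genes called in either direction. With 2 lower and 1 higher, they stand beside 4.99% and 6.41% of all tested genes. All 3 passed without WT replicate 3 as well. Their adjusted p reached 0.132, 0.137 and 0.129 when another library was left out, and no gene of the list was called without KO replicate 2 or KO replicate 3, 1 higher without WT replicate 1, and 1 lower without WT replicate 2 (edgeR). With all libraries 6 were lower and 1 higher at an unadjusted p under 0.05, and DESeq2 called 2 lower and 1 higher. The most abundant, Myb, stood at a log2 fold change of 0.05 (SE 0.10; edgeR, adjusted p = 0.824), or -0.01 without WT replicate 3. Etv2, the early embryonic factor that starts the endothelial lineage, had 0 counts in every library. Sox17, a factor of haemogenic and arterial endothelium, was at or below 1.39 CPM in each, both chosen after their values were seen.

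Of Notch and ephrin genes, which set arterial and venous identity, 3 of 15 fell and 1 rose. Ephb4, the venous ephrin receptor gene, had 17.7, 15.6 and 24.1 CPM in KO, against 32.8, 32.5 and 56.4 CPM in WT, and fell by 1.09 (SE 0.28; edgeR, adjusted p = 0.0152). Efnb2, its arterial ligand, fell by 2.38 (SE 0.63; edgeR, adjusted p = 0.0164). The third was Notch2, which fell by 0.35 (SE 0.11; edgeR, adjusted p = 0.0437). Without WT replicate 3 the adjusted p of these 3 were 0.123, 0.0814 and 0.0787 (edgeR). The lower count was also 0 without KO replicate 1, 1 without KO replicate 2 or WT replicate 1, and 2 without KO replicate 3 or WT replicate 2. At an unadjusted p under 0.05, 5 were lower with all libraries, and DESeq2 called 3. Jag2, a Notch ligand gene, rose by 1.29 (SE 0.31; edgeR, adjusted p = 0.0103), at 30.1, 32.9 and 38.3 CPM in KO and 8.92, 20.0 and 12.5 CPM in WT. Jag2 did not pass without KO replicate 3 (edgeR, adjusted p = 0.0668), where no gene of the list was higher.

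Among matrix genes and neighbours of Egfl7 and Mmrn2, 4 of 15 fell and 3 rose. The lower count ranged from 2 to 6 and the higher from 0 to 2 when a library was left out, with no higher gene without KO replicate 2 or WT replicate 1 and 6 lower without WT replicate 2. Igfbp7, a secreted matrix protein gene of vessels, had 0, 0.2 and 0.473 CPM in KO, against 5.11, 4.19 and 17.5 CPM in WT, and fell by 5.28 (SE 1.06; edgeR, adjusted p = 0.00236, and 0.0842 without WT replicate 3). Col4a1 and Col4a2, the paired chains of basement membrane collagen IV, rose by 0.44 and 0.33 (edgeR, adjusted p = 0.0161 and 0.0471). Col4a1 had 419 ± 21.0 CPM in KO and 308 ± 49.1 in WT (SD, n = 3 each). Col4a1 did not pass without KO replicate 1, KO replicate 2, WT replicate 1 or WT replicate 2 (edgeR, adjusted p = 0.0505 to 0.0884), and Col4a2 passed in 1 of the fits that left out a library, that without WT replicate 2. Agpat2, the gene next to Egfl7 on the chromosome and chosen after its values were seen, stood at a log2 fold change of -0.16 (SE 0.30; edgeR, adjusted p = 0.796).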

How the data were processed

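The authors deposited 1 table of read counts and 1 table of RPKM per gene symbol. Per the submitters' processing notes, TopHat and Cufflinks were used with mm9. The sources used here do not give versions, the counter, the annotation or the strand setting. Libraries were made with a strand-marking low-input total RNA kit, per the labels' protocols.

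Deposited counts were fitted with edgeR 4.0.16 in R 4.3.3 (TMM, filterByExpr, robust quasi-likelihood F test on the group, Benjamini-Hochberg over 12204 genes). The SE is the size of the log2 fold change over the square root of F. CPM used TMM library sizes. Alternatives were DESeq2 1.42.0, RLE scaling, no filter, a replicate block, each library left out, and limma 3.58.1 on log2(RPKM + 1) and log2(RPKM + 0.1) of the deposited RPKM, at a mean of at least 0.5 or unfiltered. The test was run on simulated counts that had the same fixed dispersion for every gene. That check does not cover genes whose WT libraries differ as widely as those of Stab2. Replicate pairs differed by 21.9 to 44.4 chi-square per degree of freedom, so each library counted once.

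The genes and the 15 other lists were chosen with earlier results of these data known. From each list the rule named the 4 genes with the smallest p and the 2 most abundant, besides the 10 genes most like the set. Members were removed from the other lists. Medians with genes at 0 in all KO libraries set to their bound were the same. Promoter windows and the microRNA are from RefSeq (GRCm38.p6), whose build differs from the authors'.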

Additional observations from a re-analysis of the deposited data

How the results depend on the processing

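RLE scaling, DESeq2, no low count filter and the replicate block moved the counts of called genes and the median of the 10 genes by less than 1.5 times. The numbers 1 to 3 are shared by the groups, and the labels do not say whether they pair the libraries. Deviations of same-numbered libraries correlated at 0.03, 0.01 and 0.00 over all tested genes, which cannot exclude a pairing. The block gave 1341 called genes against 1391 without it. With the block edgeR also called Flt4, Csf1r and the hepatoblast marker Apoe (adjusted p = 1.49e-05, 1.89e-07 and 0.000574). Flt1, Notch2 and Col4a2 lost their calls with it (edgeR, adjusted p = 0.0704, 0.0646 and 0.071). Leaving out 1 library gave 712 to 1263 called genes, 448 to 717 higher and 264 to 546 lower, 3 to 8 vessel list genes higher and 12 to 37 lower, and a median of the 10 genes from -2.04 to -0.87. Of the 10 genes, 1 was higher in each of these fits. Without KO replicate 2, 1 was lower, where 264 of 12563 tested genes were lower and 448 higher. Without WT replicate 2, 4 were lower, where 546 of 12621 tested genes were lower and 717 higher. The other fits lay between these in the count of lower genes. Because these values chose the genes, nothing is read from those counts. With limma on log2(RPKM + 1), 424 genes were called (275 higher, 149 lower), with log2(RPKM + 0.1) 434 (287 and 147), and with no filter 236 (153 and 83). Vessel list genes numbered 1 higher and 3 lower with either pseudocount and 0 and 0 unfiltered, where limma gave 10 and 41 at an unadjusted p under 0.05 and DESeq2 on the counts 9 and 37. The median of the 10 genes was -0.97 with log2(RPKM + 1), filtered or not, a scale that understates changes of low genes: Pcdh17 stood at -1.18 there. The signs of Tie1, Angpt1 and Myb turned without WT replicate 3, and that of Angpt1 also without KO replicate 1. Over the fits that left out a library Tie1 ranged from -0.18 to 0.07, Angpt1 from -0.05 to 0.15 and Myb from -0.01 to 0.11. DESeq2 also called Stab1 (adjusted p = 0.0484), C1qb (0.0199), Csf1r (0.00596) and Flt4 (0.00598), and did not call Clec4g (0.149). With all libraries, edgeR without the block did not call Stab1, C1qb, Csf1r or Flt4.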

Other observations

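The deposited RPKM and counts of Egfl7 and Pecam1 did not keep a fixed ratio across the libraries. CPM on total counts divided by RPKM, which would be the gene length in kb if both came from the same reads, was 1.71, 1.89 and 2.32 for Egfl7 in KO and 1.47, 1.4 and 1.62 in WT. For Pecam1 it was 3.39, 3.81 and 7.94 in KO and 3.51, 3.47 and 3.56 in WT. The highest of the 6 values was 1.65 times the lowest for Egfl7 and 2.35 times for Pecam1, against a median of 1.14 over 8124 genes with at least 100 counts in every library. For the log2 fold change of Egfl7 this meant 0.86 on log2(RPKM + 1), against 1.21 on the counts. RPKM of Pecam1 in KO replicate 3 was 6.59, although its CPM of 49.6 was the highest of the KO group. The cause was not tested.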
